A study of Cricetulus griseus with 19 samples.

Results

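The 8 ribosomal protein genes described here are Rpsa, Rps2, Rps4x, Rps7, Rps13, Rps14 and Fau of the small ribosomal subunit and Rpl13 of the large subunit. Each was found as 1 transcript target whose RefSeq accession carries that Chinese hamster symbol, so they are 8 of 46718 targets and 8 of 528 targets with any symbol. They were measured in 19 poly(A) RNA libraries from CHO-K1, an ovary-derived Chinese hamster line, in the series on the Paradaux line after long-term culture. Paradaux is known as an engineered CHO line whose cells make and sense the plant hormone auxin and so control the size of their own population. The libraries were 7 cultures labelled paradoxical feedback, 7 labelled negative feedback, 4 labelled uncontrolled growth and 1 parental library. All groups share the CHO-K1 line and a harvest after 2 days at under 80% confluence. The labels give no genotype, agent or dose beyond the culture condition, do not say whether the parental library carries the circuit, and do not say whether the line is 1 clone or whether numbered cultures were kept apart throughout. The p-values therefore measure the spread between these libraries, part of which may be technical. Because the RNA comes from bulk cultures, fewer expressing cells and less RNA per cell cannot be told apart.

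A ribosome is built from a small subunit, which reads the mRNA, and a large subunit, which joins the amino acids. Each subunit holds ribosomal RNA and many proteins that are needed in equal numbers, and the mRNAs for these proteins are short, abundant and commonly translated under the control of the growth kinase mTOR. In CHO cells, which are widely used to make recombinant proteins, ribosome content is tied to growth and secretion. Rpsa, also known as the laminin receptor precursor, Rps2, Rps4x, which is encoded on the X chromosome, and Rps7, Rps13 and Rps14 are structural proteins of the small subunit. Changes in Rps14 are a known source of resistance to the translation inhibitor emetine in CHO cells. Fau encodes a ubiquitin-like protein fused to the small subunit protein S30, and Rpl13 is a structural protein of the large subunit.

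The targets differ in length and in how cleanly reads could be assigned to them. Lengths were 1023 nt for Rpsa, 905 nt for Rps2, 888 nt for Rps4x, 694 nt for Rps7, 682 nt for Rpl13, 535 nt for Rps14, 463 nt for Fau and 456 nt for Rps13. Rpsa, Rps4x, Rps7 and Rps14 had whole counts in all 19 libraries, so no division of reads with another target was seen. Whole counts alone do not show that no read could also match another target. Rps2, Rps13, Fau and Rpl13 had shared reads, divided by the quantifier among similar transcripts, and the error of that division is not recorded in the deposited files. The Rps2 target held almost none of the reads in the data, at 0 to 7.16 CPM. CPM is the count scaled to a common library size with TMM factors, a correction for library composition. Such a target says nothing about the level of its gene, since predicted transcripts of the same gene carry no symbol and were not summed. The Actb target, at 0 to 1.28 CPM, is another case.

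The libraries differed in the share of counts that fell on short targets, so this share is given beside the levels of the members. Its part in those levels was not tested apart from alternative fits given below. The share on targets under 800 nt was 8.50 to 12.4% in paradoxical feedback cultures and 12.2 to 13.4% in uncontrolled cultures. Under negative feedback the libraries fell into separate sets: the first and second held 14.1 and 13.3%, and cultures 3 to 7 held 6.12 to 7.22%. The parental library had 11.8%. By exact two-sided permutation the share was lower under paradoxical feedback than in uncontrolled cultures (10.1 against 12.9%, p = 0.0121, 0.0364 after Benjamini-Hochberg adjustment over 3 comparisons). With the limit at 1000 nt the adjusted p was 0.0545 (exact permutation p = 0.0182), so the call depended on the length chosen. Mean shares of 8.53% under negative feedback and 12.9% in uncontrolled cultures were compared with an exact permutation test, which gave p = 0.0545 (adjusted 0.0818). Without negative feedback culture 1 or 2 the adjusted exact permutation p was 0.0429 and 0.0714 (differences of -5.28 and -5.14 points). Paradoxical and negative feedback cultures, at 10.1 and 8.53%, gave an exact permutation p of 0.298. Library totals were 9.91 to 13.2 M estimated counts. Of 17 markers listed to check the cell type, 0 matched a symbol, so the label of the line could not be checked in this way.

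As a family, the 8 members held a small part of these libraries. Together they took 0.432 to 0.694% of the counts under paradoxical feedback, 0.350 to 0.668% under negative feedback, 0.570 to 0.652% in uncontrolled cultures and 0.593% in the parental library. Their summed CPM averaged 5853 ± 1243 under paradoxical feedback (SD, n = 7), 4602 ± 1298 under negative feedback (SD, n = 7), 5924 ± 377 in uncontrolled cultures (SD, n = 4) and 5737 in the parental library. No test was made on the sum, since the members are a chosen set. The 5 members under 800 nt made up 0.222 to 0.335 percentage points of the short-target share under paradoxical feedback and 0.350 to 0.414 points in uncontrolled cultures, so the short share is almost wholly made of other transcripts.

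**Figure D1:**
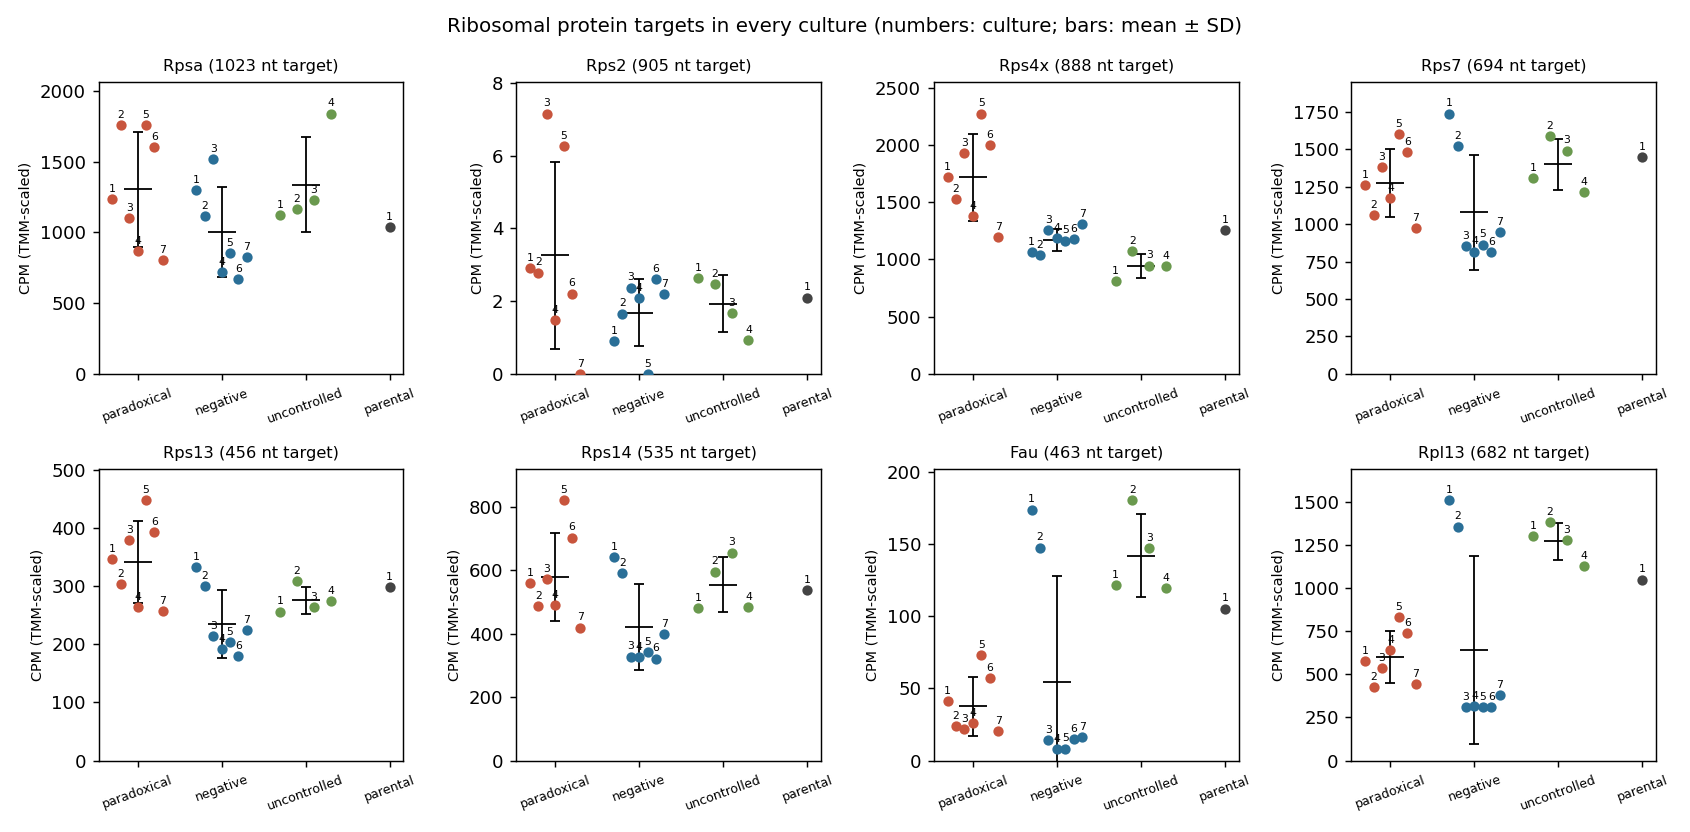
CPM (TMM-scaled, linear axis from 0) of each member in each of the 19 libraries, by culture condition, with the culture number beside each point and bars for mean ± SD where a group has more than 1 library (lower ends cut at 0). Rps4x was at 1193 to 2274 CPM under paradoxical feedback, above all uncontrolled cultures, whereas Rpl13 and Fau were below them, and in negative feedback cultures 3 to 7 Rpl13 and Fau lay at 308 to 378 and 8.10 to 16.1 CPM.

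Set against uncontrolled growth, the paradoxical feedback cultures had 1 member, Rps4x, that was called higher. It was at a lowest of 1193, a median of 1717 and a highest of 2274 CPM under paradoxical feedback, against 809, 1069, 944 and 942 CPM in uncontrolled cultures 1 to 4. All 7 paradoxical feedback cultures lay above all 4 uncontrolled ones, with culture 5 highest and culture 7 lowest. It averaged 1716 ± 378 CPM under paradoxical feedback and 941 ± 106 CPM in uncontrolled cultures (SD, n = 7 and n = 4). The difference on the log2 scale was 0.87 ± 0.15 (SE), with an edgeR adjusted p of 0.0104. The call held in 28 of 29 alternatives. In deposited TPM, which scales by effective length, Rps4x was also apart, at 2556 to 3428 under paradoxical feedback and 1500 to 1827 in uncontrolled cultures. The 1 parental library was at 1258 CPM, inside the paradoxical feedback range and above all uncontrolled cultures. In TPM it was at 2298, between the ranges of paradoxical feedback and uncontrolled cultures.

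Rpl13 and Fau stood lower under paradoxical feedback without passing the test over all targets. Rpl13 was at a lowest of 424, a median of 577 and a highest of 832 CPM under paradoxical feedback, against 1300, 1383, 1277 and 1125 CPM in uncontrolled cultures. The groups did not overlap, and the log2 fold change of -1.09 ± 0.43 had an edgeR adjusted p of 0.127. Fau was at a lowest of 20.5, a median of 26.0 and a highest of 73.0 CPM under paradoxical feedback, against 121, 180, 147 and 119 CPM in uncontrolled cultures. These groups did not overlap either, and the log2 fold change was -1.92 ± 0.76 (edgeR adjusted p = 0.129). The fit estimates the spread from all groups, including negative feedback cultures that differ widely for both genes. With only the paradoxical and uncontrolled cultures in the fit, both were called lower (edgeR adjusted p = 0.00181 for Rpl13 and 0.00337 for Fau). Both were likewise called lower without negative feedback cultures 3 to 7, a set drawn from these data (edgeR adjusted p = 0.00123 and 0.00243). Those fits also called more of all tested targets, 22.4% and 18.0%. With the short-target share as a covariate their log2 fold changes were -0.31 and -0.61 and neither was called (edgeR adjusted p = 0.0535 and 0.0644).

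The remaining members did not pass the main test, and for Rps13 and Rps14 the call depended on how the short-target share was treated. Rps13 was at 257 to 447 CPM under paradoxical feedback, with a median of 347, against 256, 308, 264 and 274 CPM. Its log2 fold change of 0.31 ± 0.18 did not pass (edgeR adjusted p = 0.296), and 4 of 7 paradoxical cultures lay above all uncontrolled ones. In TPM all 7 did, at 2028 to 2531 under paradoxical feedback against 1697 to 1975 in uncontrolled cultures. Rps13 was called higher with the length trend removed (0.54, limma adjusted p = 0.0121) and with the short-target share as covariate (0.59, edgeR adjusted p = 0.0114). Rps14 was at 418 to 820 CPM against 480 to 655 CPM, with a log2 fold change of 0.063 ± 0.22, and was called higher with the covariate (0.43, edgeR adjusted p = 0.0285). The covariate fit thus called Rps4x, Rps13 and Rps14, with 4.01% of all tested targets called. Rps7 was at 973 to 1604 CPM against 1216 to 1590 CPM (-0.13 ± 0.21), and Rpsa at 803 to 1757 CPM against 1120 to 1839 CPM (-0.038 ± 0.26). The CPM ranges of these 4 genes overlapped. The direction was not stable for the last 3 genes: Rps14 was at -0.064 with scaling by library size alone, and Rps7 and Rpsa were at 0.042 and 0.036 after removal of the length trend. Rps2 was at 0 to 7.16 CPM against 0.930 to 2.63 CPM, with 0 counts in paradoxical feedback culture 7. Scaled by library total without TMM factors, that allows up to 0.253 CPM in that library (3 counts, counting error only). The log2 fold change of Rps2, 0.76 ± 1.04, did not pass.

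In this comparison 1 of 8 members was called, with 6.43% of all 28555 tested targets called in either direction, 4.93% called higher and 1.5% called lower. With no TMM factors these shares were 3.17% higher and 1.82% lower, limma with the length trend removed gave 6.79% and 3.5%, and limma-voom gave 3.79% and 5.28%. Of the members, 1 lay wholly above and 2 lay wholly below the uncontrolled cultures, whereas 7.94% of all tested targets lay wholly above and 8.29% wholly below. The median log2 fold change was 0.012 over the 8 members, 0.024 over all tested targets and -0.22 over the 1607 tested targets under 800 nt. Over the 284 tested protein-coding targets with a symbol, the class of the members, it was 0.55, and 59 of these were called.

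**Figure D2:**
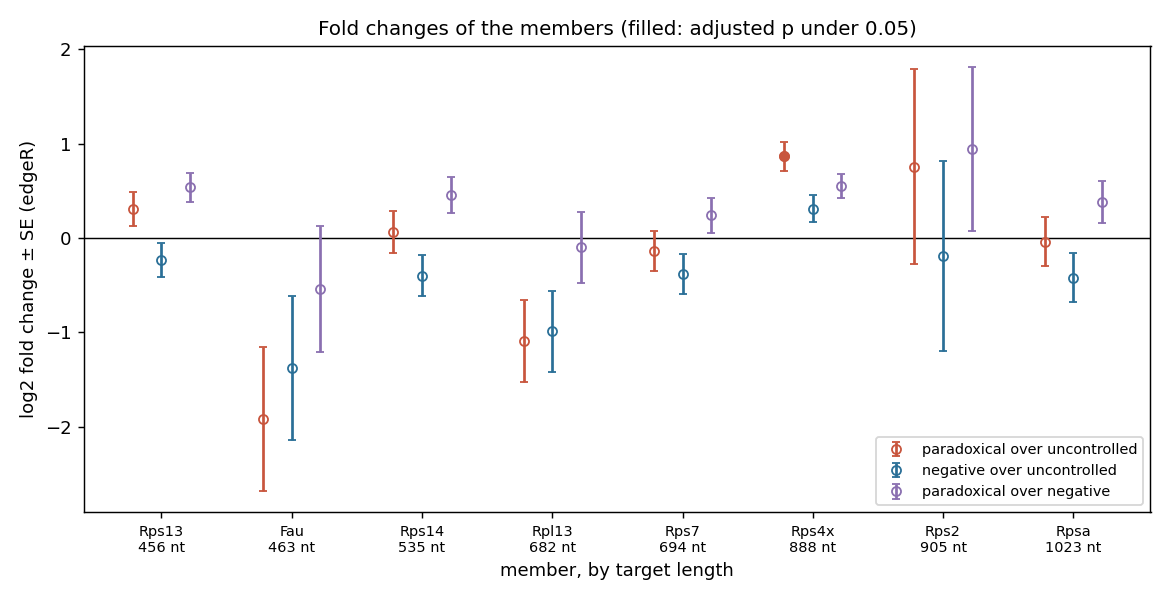
Log2 fold change ± SE by edgeR (vertical axis) for the 8 members ordered by target length (horizontal axis), for paradoxical over uncontrolled, negative over uncontrolled and paradoxical over negative cultures, with filled points for adjusted p under 0.05. Rps4x in paradoxical over uncontrolled cultures is the single filled point, and Fau at 463 nt lies far below Rps13 at 456 nt.

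Under negative feedback no member passed the test against uncontrolled growth, and the mean of that group joins unlike cultures. The comparison uses the same 4 uncontrolled cultures as the one above. Rpl13 had 1507 and 1355 CPM in the first and the second negative feedback culture, but 308 to 378 CPM in cultures 3 to 7, against 1300, 1383, 1277 and 1125 CPM in uncontrolled cultures. Cultures 1 and 2 thus lay near or above the uncontrolled range and the other 5 lay far below it. The log2 fold change was -0.99 ± 0.43 (edgeR adjusted p = 0.134), 0.17 without cultures 3 to 7 and -0.11 with the short-target share as covariate. Fau showed the widest split, at 174 CPM in culture 1, 147 CPM in culture 2 and 8.10 to 16.1 CPM in the other 5, against 119 to 180 CPM in uncontrolled cultures. Its log2 fold change was -1.38 ± 0.76 (edgeR adjusted p = 0.221), 0.18 without cultures 3 to 7 and -0.23 with the covariate.

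Rps7, Rps14 and Rps13 split the same way and by less. Rps7 had 1740 CPM in negative feedback culture 1, 1523 CPM in culture 2 and 815 to 949 CPM in the other 5, against 1216 to 1590 CPM in uncontrolled cultures. Rps14 had 642 CPM in culture 1, 589 CPM in culture 2 and 321 to 398 CPM in the other 5, against 480 to 655 CPM. Rps13 had 332 CPM in culture 1, 300.0 CPM in culture 2 and 180 to 224 CPM in the other 5, against 256 to 308 CPM. In CPM, cultures 3 to 7 lay below every uncontrolled culture in all 3 genes. The share of all tested targets for which these 5 cultures did so was not computed. In TPM this did not hold for Rps13, which was at 1643 to 1897 in cultures 3 to 7 against 1697 to 1975 in uncontrolled cultures. The log2 fold changes of the whole group were -0.38 ± 0.21 for Rps7, -0.40 ± 0.22 for Rps14 and -0.23 ± 0.18 for Rps13, with edgeR adjusted p of 0.230, 0.220 and 0.391. Without cultures 3 to 7 they were 0.22, 0.15 and 0.20.

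Rps4x ran the other way within the same cultures. It had 1065 CPM in negative feedback culture 1, 1036 CPM in culture 2 and 1164 to 1309 CPM in the other 5, against 809 to 1069 CPM in uncontrolled cultures. Cultures 3 to 7 lay above every uncontrolled culture, and cultures 1 and 2 lay inside their range. The log2 fold change was 0.31 ± 0.15 (edgeR adjusted p = 0.157), and 0.16 without cultures 3 to 7. In TPM the split was larger, at 1716 in culture 1, 1803 in culture 2 and 2733 to 2971 in the other 5, against 1500 to 1827 in uncontrolled cultures. Rpsa followed no such division. It had 1296 CPM in culture 1, 1113 CPM in culture 2, 1518 CPM in culture 3 and 671 to 850 CPM in cultures 4 to 7, against 1120 to 1839 CPM, with a log2 fold change of -0.42 ± 0.26. Rps2 was at 0 to 2.60 CPM against 0.930 to 2.63 CPM (-0.19 ± 1.00), with 0 counts in culture 5. Scaled by library total without TMM factors, that allows up to 0.242 CPM there.

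By edgeR 0 of 8 members were called under negative feedback, with 9.76% of all tested targets called (8.65% higher and 1.11% lower), and 2 members had an unadjusted p under 0.05, as did 31.2% of all tested targets. DESeq2 also called 0, limma-voom called 2, Rpl13 and Fau, and limma after removal of the length trend called 3, Rpl13 and Fau lower and Rps4x higher. Of all tested targets limma-voom called 17.6% (5.73% higher and 11.9% lower), and limma with the length trend removed called 16.9% (9.76% and 7.1%). No member lay wholly above or wholly below the uncontrolled cultures, as 1.67% and 2.2% of all tested targets did. For cultures 3 to 7 alone, a set drawn from these data, that share was not computed. The separations of single members in those cultures therefore have no background beside them and are description only. Without negative feedback culture 1, edgeR called Rpl13 and Rps7, and without culture 2 it called Rpl13. These fits called 24.4% and 22.3% of all tested targets in either direction, and 8.58% and 7.62% lower, the direction of the members called. So 2 and 1 of 8 members are near or below the share in either direction but above the share called lower. With 8 members, these counts are not read as a result about them. The median log2 fold change was -0.39 over the members, 0.041 over all tested targets and -0.50 over tested targets under 800 nt. Over the 284 tested protein-coding targets with a symbol it was 0.44, and 81 of these were called. The same cultures 3 to 7 had the lowest short-target shares of the series, and the part of that share in the levels of the members was not tested apart from the covariate and length-trend fits.

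Paradoxical set directly against negative feedback gave 0 of 8 members called by edgeR, with 0.27% of all tested targets called. The ranges of the groups overlapped for all 8 members, while 0.399% of all tested targets lay wholly above and 0.165% wholly below. The smallest adjusted p-values were those of Rps4x, at 1716 ± 378 and 1170 ± 96.5 CPM (SD, n = 7 each), a log2 difference of 0.55 ± 0.12 (edgeR adjusted p = 0.0612), and Rps13, at 341 ± 70.8 and 235 ± 58.0 CPM (SD, n = 7 each), with 0.54 ± 0.15 (edgeR adjusted p = 0.106). For Rps4x 6 of 7 paradoxical cultures lay above all negative feedback cultures, and for Rps13 4 of 7 did. Both were called by DESeq2 (adjusted p = 0.00354 and 0.0350). DESeq2 called 6.21% of all tested targets. Both were also called by edgeR without negative feedback culture 1 or culture 2 (3.47% and 3.04% of all tested targets called). Rps4x alone was called without paradoxical feedback culture 4 or culture 7 (0.991% and 0.197%). Of the members, 3 had an unadjusted p under 0.05, as did 17.6% of all tested targets, and limma-voom called 0. Fau and Rpl13 gave -0.54 ± 0.67 and -0.099 ± 0.38, and their paradoxical cultures lay between the sets of negative feedback cultures. Without negative feedback cultures 3 to 7, a set drawn from these data, both were called lower, at -2.09 and -1.25 (edgeR adjusted p = 0.00875 and 0.00440). The cultures left out were those with low Fau and Rpl13, so this outcome followed from the choice and is description only. That fit called 8.99% of all tested targets. In it Rps4x was at 0.72 (edgeR adjusted p = 0.0602) and Rps13 at 0.12.

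Against the parental line, which has 1 library, edgeR called 0 of 8 members and 0.0175% of all tested targets, under the assumption that the parental line would vary like the cultures. No member had an unadjusted p under 0.05, and DESeq2 and limma-voom also called 0. The largest log2 fold change of the long-term cultures over the parental library was -0.67 ± 1.20 for Fau. The parental library lay inside the range of uncontrolled cultures for Rps2, Rps7, Rps13 and Rps14. It lay below them for Rpsa (1038 CPM), Rpl13 (1049 CPM) and Fau (105 CPM) and above them for Rps4x (1258 CPM). For Rpl13 and Fau it was also above all 7 paradoxical feedback cultures, and for Rps4x it was inside their CPM range. The share of all tested targets for which the parental library lay outside these ranges was not computed, so these positions are description only.

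Members of nearly equal target length moved by different amounts, which is seen most directly in their ratios. Fau (463 nt) and Rps13 (456 nt) are nearest to each other in length, as are Rpl13 (682 nt) and Rps7 (694 nt). The CPM ratio of Fau to Rps13 was 0.106 ± 0.0383 in 7 paradoxical feedback cultures and 0.512 ± 0.0697 in 4 uncontrolled cultures (mean ± SD). Under negative feedback it was 0.523 in culture 1, 0.491 in culture 2 and 0.0401 to 0.0811 in the other 5, and 0.352 in the parental library. The ratio of Rpl13 to Rps7 was 0.466 ± 0.0588 in 7 paradoxical feedback cultures and 0.911 ± 0.0636 in 4 uncontrolled cultures (mean ± SD). Under negative feedback it was 0.866 in culture 1, 0.890 in culture 2 and 0.356 to 0.398 in the other 5, and 0.723 in the parental library. In both pairs all paradoxical feedback cultures lay below all uncontrolled ones. The pairs were taken after the values had been seen, so the ratios are given without a test, and of the 4 genes Rps7 alone has whole counts.

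**Figure D3:**
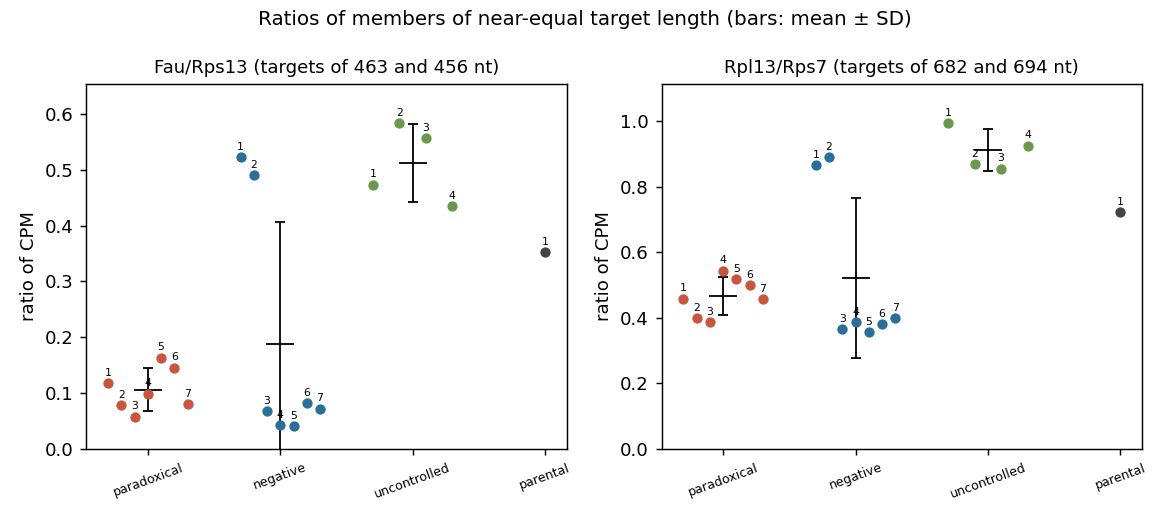
Ratio of CPM (vertical axis from 0) of Fau to Rps13 and of Rpl13 to Rps7 in each culture, by condition, with the culture number beside each point and bars for mean ± SD (lower ends cut at 0). Negative feedback cultures 1 and 2 sit with the uncontrolled cultures and cultures 3 to 7 sit with or below the paradoxical ones.

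The level of the members was set beside the short-target share within the 7 paradoxical feedback cultures. The share ran from 8.50 to 12.4% there, and it was highest in cultures 6 and 5, at 11.4 and 12.4%. The widest step in share lay between culture 6 and the culture next below it, so these 2 cultures stood apart from the rest. Log2 CPM rose with the share for Fau (Pearson r = 0.956, Spearman rho = 0.964, n = 7), with exact permutation p of 0.000794 and 0.00278, adjusted over 8 members to 0.00370 and 0.0222. Rps14 gave r = 0.959 and rho = 0.893 (exact permutation p = 0.00139 and 0.0123, adjusted 0.00370 and 0.0246), and Rpl13 gave r = 0.951 and rho = 0.929 (exact permutation p = 0.00139 and 0.00675, adjusted 0.00370 and 0.0246). Rps7, Rps4x and Rps13 followed with r = 0.902, 0.832 and 0.813 and rho = 0.893, 0.821 and 0.821 (exact permutation p for r of 0.00496, 0.0194 and 0.0256, adjusted 0.00992, 0.0311 and 0.0341; for rho of 0.0123, 0.0341 and 0.0341, adjusted 0.0246, 0.0455 and 0.0455). Rpsa and Rps2 did not pass (r = 0.593 and 0.541, rho = 0.607 and 0.393, exact permutation p for r of 0.168 and 0.216, adjusted 0.192 and 0.216, and for rho of 0.167 and 0.396, adjusted 0.190 and 0.396). Without the 2 cultures farthest from the median share, cultures 5 and 6, r was 0.891 for Rpl13, 0.778 for Rps7, 0.775 for Rps14, 0.759 for Fau, 0.583 for Rps4x, 0.467 for Rps13, 0.638 for Rps2 and 0.0429 for Rpsa over 5 cultures. For every member but Rps2, r was thus lower without cultures 5 and 6, so these relations rest in part on those 2 cultures. Cultures 5 and 6 also have the highest Rps4x. Rps4x, at 888 nt, is itself not counted among targets under 800 nt. The correlations were made for the members alone, and the share of all tested targets that would pass was not computed. The relations therefore cannot be read as particular to the members.

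**Figure D4:**
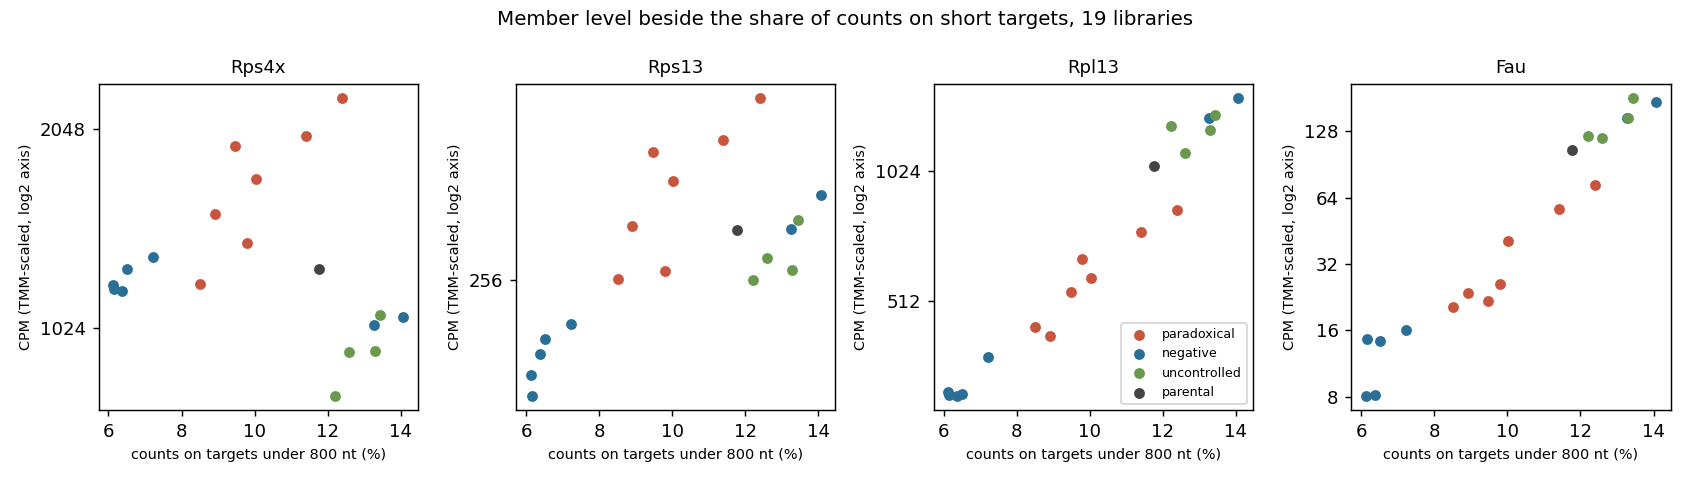
CPM (TMM-scaled, log2 axis) of Rps4x, Rps13, Rpl13 and Fau against the percent of counts on targets under 800 nt in the 19 libraries, coloured by culture condition. Rpl13 and Fau are lowest in negative feedback cultures 3 to 7, at shares of 6.12 to 7.22%, whereas Rps4x is lowest in uncontrolled cultures, at shares of 12.2 to 13.4%.

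Levels of the targets of the members, rather than of their genes, can be compared in TPM. The authors' quantifier scaled TPM by an effective length 299 nt below the target length. Rps2, Rps13, Fau and Rpl13 share reads with targets that were not summed, so their TPM and their place in the order may not stand for their genes. For Rps13 and Fau that leaves 157 and 164 nt, so their TPM, and their place in the order, depend strongly on the subtracted length. Under paradoxical feedback the order was Rps7 at 3433 ± 222 TPM, Rps4x at 3079 ± 311, Rps14 at 2586 ± 277, Rps13 at 2302 ± 199, Rpsa at 1904 ± 509, Rpl13 at 1654 ± 270, Fau at 235 ± 97.4 and Rps2 at 5.46 ± 4.09 TPM (SD, n = 7). Neighbours in this order overlapped down to Rpl13, and Fau lay below all others but Rps2. In uncontrolled cultures the order was Rps7 at 3725 ± 271 TPM, Rpl13 at 3493 ± 212, Rps14 at 2460 ± 266, Rpsa at 1961 ± 577, Rps13 at 1848 ± 132, Rps4x at 1681 ± 150, Fau at 906 ± 140 and Rps2 at 3.32 ± 1.35 TPM (SD, n = 4). There Rpl13 overlapped with Rps7 and lay above Rps14, and Rps14 to Rps4x overlapped in turn. Under negative feedback Rpl13 was at 3734 TPM in culture 1, 3627 TPM in culture 2 and 1112 to 1299 TPM in the other 5.

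Few other genes of translation carried a symbol. Of 4 translation factors, Eef2, the translocase of elongation, and Eef1a1, which delivers aminoacyl-tRNA and has shared reads in 5 of 19 libraries, were called higher under paradoxical feedback, at 0.62 ± 0.11 and 0.73 ± 0.15 (edgeR adjusted p = 0.0104 and 0.0162). Under negative feedback Eef2 was called higher, at 0.38 ± 0.11 (edgeR adjusted p = 0.0368). Of the 284 tested protein-coding targets with a symbol, 59 were called under paradoxical feedback and 81 under negative feedback, each against uncontrolled cultures. The shares of all tested targets called were 6.43% and 9.76%. Eef1e1, a component of the aminoacyl-tRNA synthetase complex, and Eif2ak2, a kinase that inhibits initiation, were not called. Neither was Ubtf, a transcription factor of the ribosomal RNA genes and the 1 matched of 30 ribosome biogenesis genes, whose target was at 0 to 0.850 CPM. Of 11 genes of growth control and of the mitochondrial ribosomal proteins, 0 matched.

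Named genes with a pattern like that of the members were found by correlating log2 CPM over the 19 libraries with the mean standardized level of the members, as a description, since the libraries share the differences in short-target share. Among 276 candidates, those reported are Xrcc5, the Ku80 subunit of double-strand break repair (r = 0.897, shared reads), Ndufb11 of respiratory complex I (0.865) and Dpm2, a regulator of dolichol-phosphate-mannose synthesis (0.864). Of the members themselves, Rps14 (0.956), Rps7 (0.926) and Rps13 (0.923) lay closest to the mean and Rps4x lay farthest (0.356). Each member is itself part of that mean, which raises its r, so these values cannot be set against those of the other genes. The target of Xrcc5 is 2302 nt long and is not short, whereas that of Ndufb11 is 540 nt and that of Dpm2 is 834 nt long.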

How the data were processed

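Estimated counts and TPM of 19 libraries were deposited by the authors, 1 file each. Per the submitters' processing notes Trim Galore and kallisto made them. Tool versions, the genome build and the annotation of the index: not given in the sources used here. Per the file headers each row is a transcript target with its length, effective length, estimated count and TPM. Symbols came from RefSeq accessions of assembly CriGri-PICRH-1.0, used for names alone, and all 8 members matched. No sequences are shown.

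Estimated counts were rounded, filtered with filterByExpr (28555 targets left), scaled with TMM factors and tested by quasi-likelihood (edgeR 4.0.16, R 4.3.3), with 1 coefficient per condition and all libraries in 1 fit. P-values were Benjamini-Hochberg adjusted over all tested targets and called under 0.05. Alternatives used limma 3.58.1 and DESeq2 1.42.0. A count was called whole within 1e-06. The members and gene lists were chosen with earlier results of these data known. Named are the members, called genes of the lists of translation genes and the 5 named targets most like the members, of which 3 are given and the others are not reported here; members of short lists that were not called, the length pairs and Actb were added after their values were seen. With totals of 9.91 to 13.2 M counts, 3 counts in a library was taken as the limit for a target at 0, which covers counting error alone, since duplicate reads of 1 molecule cannot be recognised.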

Additional observations from a re-analysis of the deposited data

Results flagged for a closer look

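Of 30 sets of cultures examined (8 members, their sum and the short-target share in 3 conditions), 1 held a culture far from the others. Chance alone gives about 1 in 20. Rpsa was at 1839 CPM in uncontrolled culture 4, with the next highest uncontrolled culture at 1226 CPM. Without that culture the log2 fold change of Rpsa under paradoxical feedback against uncontrolled growth was 0.15 (edgeR adjusted p = 0.800), and under negative feedback it was -0.23 (edgeR adjusted p = 0.597). No other member was set apart in that culture by the same measure, and its short-target share was 12.6%.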

How the results depend on the processing

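Rps4x stayed higher under paradoxical feedback against uncontrolled growth in all 29 alternatives (log2 fold change 0.74 to 0.99), and the call was lost in 1, the replicate block (0.78, adjusted p = 0.103). Rpl13 and Fau stayed lower in that comparison in all 29 (-1.21 to -0.31 and -2.18 to -0.61). The labels give no pairing of cultures by replicate number. Deviations of same-numbered cultures from their group means correlated at -0.157 to 0.107, and 2 of 4, 1 of 4 and 1 of 7 correlated best with their own number. Under negative feedback that mean joins unlike cultures, so these values cannot exclude a pairing. With the replicate block, targets called numbered 4, 4 and 0 for negative and paradoxical feedback against uncontrolled and for paradoxical against negative feedback, members called under paradoxical feedback were 0, and Fau and Rpl13 were at 0.23 and 0.20 in paradoxical over negative cultures. Depth limits the Rps2 target alone among the members.

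Counts of all targets called, against main counts of 2787, 1835, 77 and 5, were as follows in the order negative against uncontrolled, paradoxical against uncontrolled, paradoxical against negative, and long-term against parental. DESeq2 gave 6374, 4773, 1772 and 288. Limma-voom gave 5039, 2589, 297 and 100. With the length trend removed they were 4813, 2937, 7 and 57, and the short-target share as covariate gave 6, 1145, 697 and 12. Fits of the compared groups alone gave 10, 4956 and 0. Without negative feedback cultures 3 to 7 they were 13, 4926, 2454 and 8. The third comparison gave 11 with RLE size factors, 42 by library size alone, 2 with no filter and 136 with the stricter filter. Leaving out 1 culture gave 7 to 6938, 127 to 3204, 0 to 989 and 5 to 11. The first count was 7 to 15 without any 1 uncontrolled culture, 6938 and 6335 without negative feedback culture 1 or 2, and 965 to 1477 without any 1 of cultures 3 to 7; the second was 127, 150, 644 and 546 without uncontrolled culture 1, 2, 3 or 4, 3204 and 2966 without negative feedback culture 1 or 2, and 1104, 1005 and 1019 without paradoxical culture 1, 3 or 6. The third was 989, 865 and 281 without negative feedback culture 1 or 2 or paradoxical culture 4.

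Members called, against 0, 1, 0 and 0, were 3 and 2 for negative and paradoxical feedback against uncontrolled with the length trend removed (16.9% and 10.3% of all targets) and 2 and 2 with limma-voom (17.6% and 9.07%). For paradoxical against uncontrolled they were 3 with the covariate (4.01%), 3 in the fit of those groups (22.4%) and 3 without negative feedback cultures 3 to 7 (18.0%). For paradoxical against negative feedback they were 2 with DESeq2 (6.21%), 2 with the covariate (2.44%) and 2 without cultures 3 to 7 (8.99%). The last of these followed from the choice of cultures left out, a set drawn from these data. Leaving out 1 culture gave 0 to 2, 1, 0 to 2 and 0. The short-target difference between negative feedback and uncontrolled cultures (-4.36 points) was -5.28 to -3.95 with 1 culture left out; its adjusted p was 0.0429 without negative feedback culture 1 and 0.0714 without culture 2.

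Log2 fold changes that changed sign were not called in the main fit or under the alternative. For negative against uncontrolled, Rps13 was 0.19 with the length trend removed and with the covariate, and Rps14 and Rps7 were 0.15 and 0.16 with the covariate. Without cultures 3 to 7, Fau, Rpl13, Rps13, Rps14 and Rps7 were 0.18, 0.17, 0.20, 0.15 and 0.22. Rps2 ran from -0.42 to 0.034 with 1 culture left out. For paradoxical against uncontrolled, Rps7 and Rpsa were 0.042 and 0.036 with the length trend removed and 0.24 and 0.15 with the covariate, Rps14 was -0.064 by library size alone and Rps2 was -0.097 by limma-voom. With 1 culture left out, Rps14 ran from -0.054 to 0.15 and Rpsa from -0.14 to 0.15. For paradoxical against negative, Fau and Rpl13 were 0.23 and 0.053 with the length trend removed and 0.48 and 0.25 by limma-voom, and ran from -0.79 to 0.11 and from -0.22 to 0.27 with 1 culture left out. Without cultures 3 to 7, Rps14 and Rps7 were -0.082 and -0.35. For long-term against parental, Rps13, Rps14, Rps2 and Rps4x were 0.0044, 0.0066, -0.22 and 0.037 with the length trend removed. Rps2 was -0.51 by limma-voom and -0.044 to 0.14 with 1 culture left out. Without cultures 3 to 7, Rps13, Rps14 and Rps2 were 0.050, 0.11 and -0.073, and with the covariate Rps13 and Rps14 were 0.025 and 0.079. The cause of these changes was not tested.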
